A study of Mus musculus with 14 samples.

Results

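The genes described here are 38 transcripts of cell division and DNA replication, taken as a fixed list of gene symbols: the parts of the replication machinery, the enzymes that supply its nucleotides, the cyclins with Cdk1, the mitotic kinases, the spindle checkpoint, the spindle and the chromosome itself. Probe sets were assigned to them where the array annotation gave that single symbol, which held for 37 of the 38 genes through 82 probe sets, out of 18193 genes with a single symbol on the array. No probe set in the annotation used here carries the single symbol Ccnb1, so this cyclin was not analysed here. The probe set with the highest mean stood for each gene. Tyms, the thymidylate synthase gene, lay under the level of 33.9 signal units below which probe sets were left out in all of its 4 probe sets, with signals of 2.5 to 81.1 on the 14 arrays, so 36 genes were tested.

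The arrays measured total RNA of peritoneal cells, called macrophages in the labels, from female C57Bl/6 x C3H F1 mice of 12 to 16 weeks. Naive mice gave 2 arrays. A group of 3 arrays came from mice injected in a tail vein with 60 µg of lipopolysaccharide (LPS) from Salmonella minnesota, a component of the bacterial outer membrane. The remaining mice, under halothane, received SMD in a drop placed at the nares, at 100, 200 or 300 mg/kg (3 arrays per dose), were injected with that amount of LPS 30 min later, and gave their cells 2 h after the injection. The labels do not spell out SMD, and they give neither a harvest time for the LPS group nor a vehicle for the LPS and naive groups. The sample titles call the LPS and SMD arrays biological replicates, and the naive arrays only replicates. The labels do not say whether a replicate is 1 mouse or a pool, so the p-values reflect only how far these samples scatter. For the naive arrays that scatter may be technical.

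Cells copy their DNA once per division. The Mcm2 to Mcm7 proteins form the helicase that Cdc6 helps load onto origins, geminin (Gmnn) blocks a second loading, and ribonucleotide reductase (Rrm1, Rrm2) and thymidine kinase (Tk1) provide the building blocks. Cyclins with their kinases then drive mitosis, in which Aurora and Polo kinases, the Bub checkpoint proteins and kinesin motors align and separate the chromosomes before the anaphase-promoting complex (APC/C), with Cdc20 and Ube2c, ends the process. Most of these genes are transcribed mainly in cycling cells, under E2F, RB family and DREAM complex proteins that bind E2F, CCAAT and CHR sequences near their start sites. Resident peritoneal macrophages renew themselves at a low rate, while neutrophils are non-dividing cells that arrive from blood.

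The promoters of 5 genes are printed because those genes carry the patterns described below: Top2a, Rrm2 and Cenpa, which were lower after LPS and higher at the highest SMD dose, Cdca7, which was lower with SMD, and Pcna, whose signal differed little. Each line runs 5′ to 3′ on the gene's strand, assembly GRCm38.p6, and ends before RefSeq's outermost start of the gene, which for Top2a, Cenpa and Cdca7 lies upstream of the start that RefSeq's promoter table uses, so that these lines hold 240, 241 and 218 bases, with matches in capitals to CCAAT, the CHR core TTTGAA or the E2F core TTCCCGC, or to their reverse complements.
Top2a, chr11:99024200-99024439, minus strand: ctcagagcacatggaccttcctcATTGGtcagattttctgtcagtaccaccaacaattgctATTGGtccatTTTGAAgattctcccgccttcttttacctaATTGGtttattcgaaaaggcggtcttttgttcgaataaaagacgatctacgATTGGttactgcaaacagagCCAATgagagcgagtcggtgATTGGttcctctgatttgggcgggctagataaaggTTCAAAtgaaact
Rrm2, chr12:24708004-24708253, plus strand: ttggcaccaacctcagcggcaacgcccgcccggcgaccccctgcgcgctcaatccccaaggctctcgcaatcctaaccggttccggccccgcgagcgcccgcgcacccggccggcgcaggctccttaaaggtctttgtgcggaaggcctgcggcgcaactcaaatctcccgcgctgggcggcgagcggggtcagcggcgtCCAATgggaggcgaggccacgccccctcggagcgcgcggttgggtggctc
Cenpa, chr5:30666636-30666876, plus strand: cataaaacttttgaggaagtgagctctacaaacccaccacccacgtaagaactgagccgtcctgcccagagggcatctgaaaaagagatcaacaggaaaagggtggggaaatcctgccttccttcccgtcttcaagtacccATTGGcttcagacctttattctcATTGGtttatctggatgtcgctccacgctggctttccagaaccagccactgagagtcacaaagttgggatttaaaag
Cdca7, chr2:72475969-72476186, plus strand: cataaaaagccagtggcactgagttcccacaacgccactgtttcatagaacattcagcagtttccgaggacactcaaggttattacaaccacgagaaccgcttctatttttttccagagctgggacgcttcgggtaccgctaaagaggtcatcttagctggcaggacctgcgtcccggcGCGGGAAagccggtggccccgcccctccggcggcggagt
Pcna, chr2:132253181-132253430, minus strand: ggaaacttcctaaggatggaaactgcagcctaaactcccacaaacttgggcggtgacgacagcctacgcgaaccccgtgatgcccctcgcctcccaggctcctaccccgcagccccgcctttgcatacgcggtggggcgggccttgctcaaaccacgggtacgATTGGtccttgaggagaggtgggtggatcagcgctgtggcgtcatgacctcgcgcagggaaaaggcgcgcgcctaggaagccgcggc

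The Top2a sequence held 6 CCAAT matches and 2 CHR matches. The Rrm2 and Pcna sequences each held 1 CCAAT match and the Cenpa sequence 2. The Cdca7 sequence held no CCAAT match and 1 match to the E2F core TTCCCGC. A match is a run of letters, and no binding was measured. RefSeq's table had promoters, 250 bases before to 50 after the start, for 32 of the 38 genes. CCAAT stood on either strand in 25 of these 32 (78.1%, against 37.9% of 27025 promoters in the table), TTTGAA in 15 (46.9%, against 18.1%), TTCCCGC in 5 (15.6%, against 4.66%) and the second E2F core searched, TTGGCGC, in 7 (21.9%, against 2.54%). Among the 30 tested genes with a promoter, 11 of the 15 with a TTTGAA match and 6 of the 15 without were lower after LPS in the comparison below. For CCAAT these counts were 14 of 24 and 3 of 6, and for either E2F core 4 of 9 and 13 of 21. These shares are descriptions, and whether they differ was not tested.

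Signals are the authors' MAS5 intensities, with array medians of 65.1 to 84.8. Changes are differences of log2(signal + 16) between group means from limma, with standard errors (SE), and a gene was called higher or lower at an adjusted p under 0.05 after Benjamini-Hochberg adjustment over 27022 probe sets. Levels of different genes are not compared, since probe sets differ in brightness. Macrophage markers were bright, with a summed signal of 191093 to 232869 over 11 of 12 marker genes across the 14 arrays, and markers of B cells (summed signal 32166 to 85521), mast cells and platelets were also present. In bulk RNA, fewer cells of a type and less RNA per cell cannot be told apart. The 3′/5′ ratio of the actin control, which rises as the 5′ end of transcripts is lost, was 2.84 to 3.05 in naive mice, 1.92 to 5.86 after LPS, and 2.72 to 11.6, 9.03 to 10.7 and 6.99 to 18.9 at 100, 200 and 300 mg/kg. Exact two-sided permutation tests of its log2 value against LPS gave p = 0.4, 0.1 and 0.1, where 0.1 is the smallest p that 3 against 3 arrays allow. The same ratio of the Gapdh control was 6.78 and 8.86 in naive mice and 4.54, 92.0 and 16.8 after LPS. LPS replicates 2 and 3 thus lay above both naive arrays. With SMD it was 21.0 to 74.2, 67.0 to 114 and 32.2 to 179 at 100, 200 and 300 mg/kg. The part of RNA quality in the changes after LPS was not tested.

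**Figure D1:**
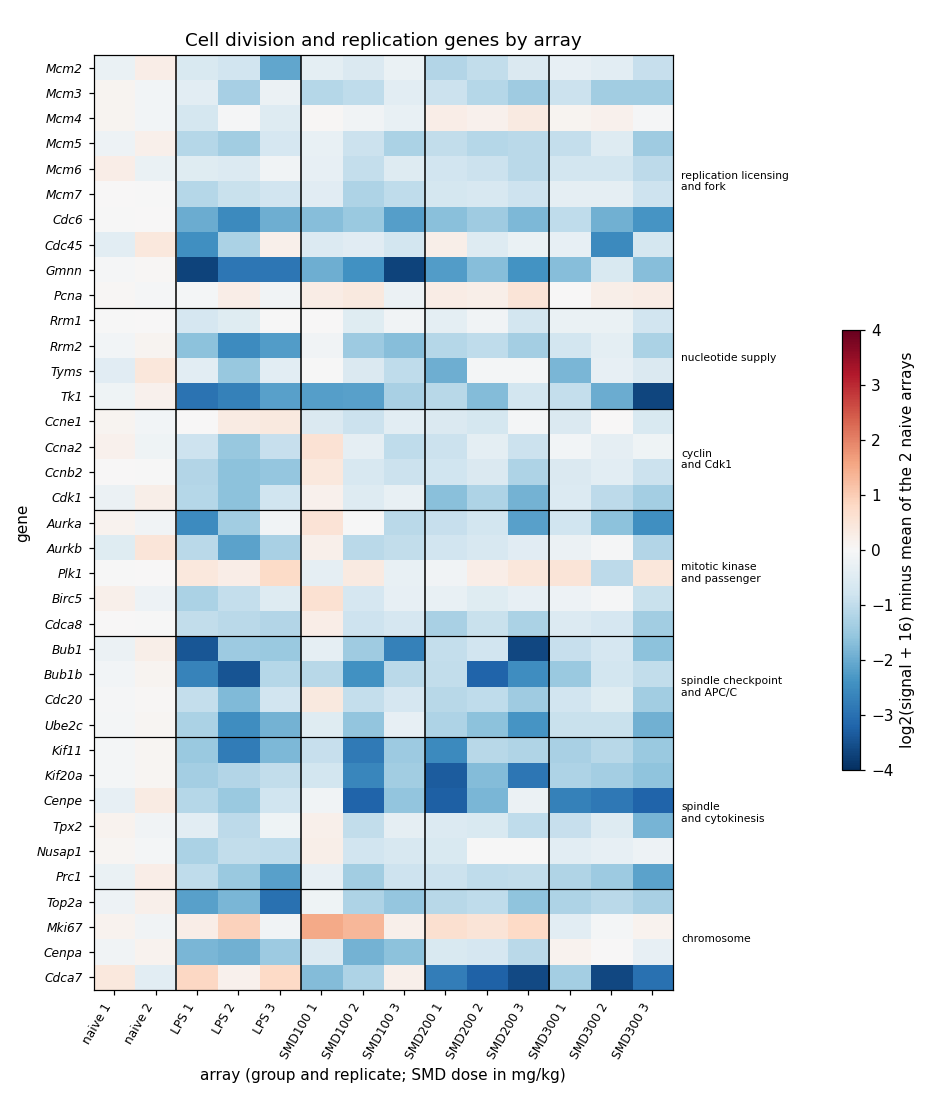
Heat map of 37 genes (rows, by role) on 14 arrays (columns, by group), coloured by log2(signal + 16) minus the mean of the 2 naive arrays. Most rows are blue (lower) on the LPS arrays, SMD 100 mg/kg replicate 1 is closer to the naive level than the rest of its group, and Cdca7 is low on the SMD 200 and 300 mg/kg arrays.

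Between LPS and naive mice, most of the genes were lower after the challenge. Of the 36 tested, 19 fell and 0 rose, where 16.8% of all tested probe sets fell, 10.3% rose and 27.1% changed either way. At an unadjusted p under 0.05 there were 22 genes, against 36.7% of probe sets. The change was below 0 in 32 of the 37 genes, with a median of -1.16 on the log2 scale, against -0.24 over all tested probe sets. In 26 genes the LPS arrays all lay below both naive arrays, which held for 35.3% of tested probe sets. Calls came from every role, with 5 of 10 replication genes, 2 of 3 nucleotide supply genes, 2 of 4 cyclin and Cdk1 genes, 2 of 5 mitotic kinase and passenger genes, 3 of 4 checkpoint and APC/C genes, 3 of 6 spindle genes and 2 of 4 chromosome genes.

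Among replication genes, Gmnn, the inhibitor of origin relicensing, had signals of 1414 and 1505 in naive mice and 98.1, 184 and 181 after LPS. No LPS array came near a naive one. The change was -3.16 ± 0.45 (SE, n = 3 and 2, limma adjusted p = 3.44e-05). Cdc6, the helicase loader, stood at 318 and 325 in naive mice and 68.8, 41.4 and 71.4 after LPS. Its groups were also far apart, with a change of -2.17 ± 0.47 (adjusted p = 0.00189). Mcm7 stood at 3368 and 3317 in naive mice and 1504, 1783 and 1980.0 after LPS, a smaller but non-overlapping fall of 0.93 (adjusted p = 0.00395). The helicase subunits Mcm2 (-1.16) and Mcm5 (-1.07) fell as well, while Mcm3 (-0.66), Mcm4 (-0.42), Mcm6 (-0.39) and the helicase partner Cdc45 (-1.17) did not pass the test.

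Pcna, the sliding clamp that holds DNA polymerase on its template, was the replication gene with the highest signal. It stood at 13711 and 12834 in naive mice, 12655, 15923 and 12059 after LPS, 16156, 17405 and 11222 at 100 mg/kg, 16225, 15685 and 18809.7 at 200 mg/kg, and 13415, 15556 and 16396 at 300 mg/kg. The LPS arrays overlapped the naive arrays, and the change with LPS was 0.02 ± 0.18 (adjusted p = 0.954). The arrays at 200 mg/kg all lay above both naive arrays, and overlapped the LPS arrays. A single probe set measured it.

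In nucleotide supply, Rrm2, the regulated subunit of ribonucleotide reductase, had signals of 766 and 887 in naive mice and 253, 130.1 and 162 after LPS. The groups did not overlap, and the change was -2.13 ± 0.40 (adjusted p = 0.000553). Tk1 stood at 196 and 249.5 in naive mice and 14.3, 20.1 and 37.1 after LPS, partly under the level of 33.9, so that its change of -2.61 ± 0.69 (adjusted p = 0.00822) depends on the pseudocount of 16. Rrm1, the large subunit of the reductase, did not pass. Its signals were 969 and 999 in naive mice, 612, 702 and 976 after LPS, 999.5, 706 and 894 at 100 mg/kg, 751, 892 and 584 at 200 mg/kg, and 819.9, 811 and 576 at 300 mg/kg, where the LPS arrays overlapped the naive arrays, those at 200 and 300 mg/kg all lay below both naive arrays, and the change with LPS was -0.39 ± 0.26.

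Of the cyclins, Ccnb2, a mitotic B-type cyclin, had signals of 481 and 479 in naive mice and 203, 142 and 153 after LPS. All LPS arrays were lower, by 1.46 ± 0.36 on the log2 scale (change -1.46, adjusted p = 0.00501), and the mitotic kinase Cdk1 fell too (-1.19). Ccna2, cyclin A, did not pass (-1.08, adjusted p = 0.0515). Ccne1, the cyclin of S-phase entry, stood apart from these with a change of 0.25: its signals were 404 and 346 in naive mice, 381, 477 and 497 after LPS, 242, 196 and 273 at 100 mg/kg, 242, 221 and 349 at 200 mg/kg, and 247, 376 and 239 at 300 mg/kg. Every SMD array lay below every LPS array for this gene, but no dose passed the test (changes of -0.89, -0.72 and -0.64).

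Among checkpoint and APC/C genes, Ube2c, the conjugating enzyme of the APC/C, had signals of 335 and 381 in naive mice and 138, 50.1 and 85.0 after LPS. The groups did not overlap, with a change of -1.89 ± 0.50 (adjusted p = 0.00832). The checkpoint kinase-like protein Bub1b (-2.43) and the APC/C activator Cdc20 (-1.16) fell. Bub1b stood at 189 and 228 in naive mice and 19.2, 4.3 and 84.9 after LPS. These LPS signals lay partly under the level below which probe sets were left out, so the change of Bub1b depends on the pseudocount. Its call was lost without LPS replicate 2, among other alternatives. The Cdc20 call was lost under quantile normalization, median centring, the mean of its probe sets and the replicate block, among others. Cdc20 stood at 569 and 610.0 in naive mice, 296, 162 and 339 after LPS, 779, 299 and 365 at 100 mg/kg, 266, 285 and 209 at 200 mg/kg, and 342, 413 and 214 at 300 mg/kg, so 1 array of the lowest dose exceeded the naive arrays. Bub1 (-2.12, adjusted p = 0.0704) did not pass.

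Of the mitotic kinases and their passengers, Aurkb (-1.51) and borealin, Cdca8 (-1.07), fell. Birc5, or survivin, the brightest of this group, had signals of 454 and 345 in naive mice, 154, 196 and 269.5 after LPS, 609, 242 and 310.5 at 100 mg/kg, 323, 278 and 313 at 200 mg/kg, and 344, 384 and 209 at 300 mg/kg. The LPS arrays lay below the naive ones without passing the test (-0.92, adjusted p = 0.0793). Plk1, the Polo kinase, was higher on all 3 LPS arrays than on the naive arrays, at 92.9, 81.4 and 122 against 63.7 and 65.7, and was not called (0.49, adjusted p = 0.567). Aurka (-1.34) was not called either.

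Among spindle genes, Nusap1, a microtubule-binding protein, had signals of 622 and 563 in naive mice and 237, 289 and 285 after LPS. The groups were apart, with a change of -1.09 ± 0.31 (adjusted p = 0.0118). The midzone crosslinker Prc1 (-1.55) and the kinesin Kif11 (-2.02) fell, while the kinesins Kif20a (-1.18) and Cenpe (-1.14) and the spindle assembly factor Tpx2 (-0.55) lay below the naive arrays on all LPS arrays without passing.

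Among chromosome genes, Top2a, the topoisomerase that untangles replicated DNA, had signals of 1151 and 1522 in naive mice and 279, 363 and 155 after LPS. The fall was clear of the spread in either group, with a change of -2.32 ± 0.37 (adjusted p = 0.00011). Cenpa, the histone variant of centromeres, stood at 719.6 and 876 in naive mice and 214, 199 and 279 after LPS, again without overlap (-1.73 ± 0.34, adjusted p = 0.000906). With the mean of all probe sets of a gene the changes were -0.93 for Cenpa (adjusted p = 0.0691) and -1.11 for Top2a (adjusted p = 0.0522), neither called. Mki67, the proliferation antigen Ki-67, did not follow them. Its signals were 1579.6 and 1303 in naive mice and 1739, 2714 and 1299 after LPS, with overlapping groups and a change of 0.35 ± 0.33 (adjusted p = 0.491).

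**Figure D2:**
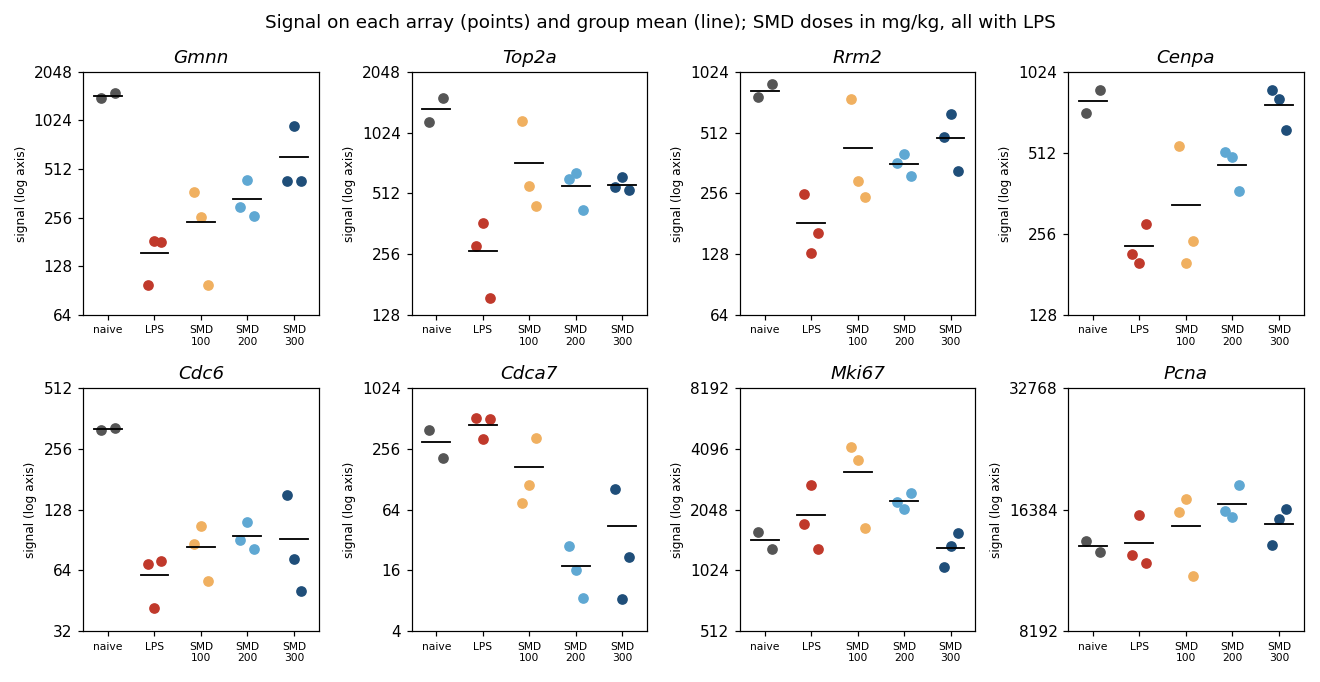
Signal on each array (points, log axis) and group mean (lines) of 8 genes in naive mice (n = 2), after LPS (n = 3) and after LPS with SMD at 100, 200 or 300 mg/kg (n = 3 each). Gmnn, Top2a, Rrm2, Cenpa and Cdc6 are low after LPS, Cdca7 is low at 200 and 300 mg/kg, and Mki67 and Pcna overlap between LPS and naive.

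The number of calls leaned on the 2 naive arrays and on the scaling. It was 11 without naive replicate 1 and 7 without naive replicate 2. The shares of all probe sets called without these arrays are not given here, so the counts cannot be set against the array as a whole. Centring every array on its median, which moved the median change of all tested probe sets from -0.24 to 0.18, left 9 of the genes lower and 0 higher, with 8.22% of probe sets lower and 17.5% higher in place of 16.8% and 10.3%, and quantile normalization left 11. Gmnn, Rrm2, Cdc6 and Ccnb2 were called lower under each of the 25 alternatives run. Of 31 other probe sets of 20 of the genes, 25 changed in the same direction as the chosen one, and 4 were called lower, beside 16.8% of all tested probe sets. Among these 31, 18 belonged to genes called lower, of which 17 changed in the same direction and only 3 were called lower. The other probe sets of Top2a were a dim one that was not tested and one that changed by -0.72 (adjusted p = 0.526).

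With LPS and SMD at 100 mg/kg against LPS alone, no gene was called. limma called 0 of 36 genes and 0% of all tested probe sets. At an unadjusted p under 0.05 there were 13 genes, against 8.99% of probe sets, and the change was above 0 in 30 of the 37 genes, with a median of 0.59 against -0.02 over all tested probe sets. The arrays lay above all LPS arrays in 7 genes, against 5.49% of probe sets, and below them in 1, against 5.38%. The smallest p-values were those of Top2a, Ccnb2 and Ccne1. Top2a had signals of 1164, 558 and 443 at this dose and 279, 363 and 155 after LPS alone. All 3 were higher, with replicate 1 at the level of the naive arrays, and the change was 1.34 ± 0.33 (adjusted p = 0.301). Ccnb2 stood at 646, 306 and 256 against 203, 142 and 153, the same picture with a change of 1.10 ± 0.32 (adjusted p = 0.375).

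Much of the level at this dose came from 1 array. SMD 100 mg/kg replicate 1 was the highest of its group in 26 of the 37 genes, which held for 31.2% of tested probe sets. Its mean over the 37 genes was 8.69 on the log2 scale, against 7.93 and 8.05 on the other arrays of the group, 7.66 to 8.04 after LPS and 8.93 and 9.05 in naive mice. Cdca8 shows the pattern, with 462 on that array, 206 and 234 on the others, and 383 and 379 in naive mice. The median change of the tested genes at 100 mg/kg was 0.60, and without this array it was 0.32. Without replicate 3 of this dose, 3 genes were called higher. The actin ratio of replicate 1 was 4.33, against 11.6 and 2.72 for replicates 2 and 3, and the part of RNA quality in this was not tested.

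At 200 mg/kg, 4 genes rose against LPS and 1 fell. Among all tested probe sets 6.68% rose, 6.39% fell and 13.1% changed either way, so 5 of 36 is near the background. At an unadjusted p under 0.05 there were 11 genes, against 27.5% of probe sets. The arrays lay above all LPS arrays in 11 genes (14.3% of probe sets) and below them in 4 (16.7%). Mcm4, a helicase subunit, had signals of 2168, 2007 and 2276 at this dose and 1099.8, 1738 and 1234 after LPS alone. The groups did not overlap, and the change was 0.68 ± 0.18 (adjusted p = 0.0201). Top2a stood at 602, 646 and 422 against 279, 363 and 155, a rise of 1.08 ± 0.33 (adjusted p = 0.0392). Nusap1 stood at 386, 581 and 582 against 237, 289 and 285, a rise of 0.88 ± 0.27 (adjusted p = 0.0416). Cenpa stood at 517, 493 and 369 against 214, 199 and 279, a rise of 0.95 ± 0.31 that only just passed (adjusted p = 0.0499). These rises left Top2a and Cenpa below the naive arrays, while Mcm4 lay above them.

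The calls at 200 mg/kg were fragile. None of the 4 higher genes was called without LPS replicate 1 or LPS replicate 3, and 1 was called without any of the SMD 200 mg/kg replicates or either naive replicate. Without LPS replicate 2 the number of lower genes was 2. With the log2 actin ratio as a covariate none was called, and the changes were 0.46 for Mcm4, 0.83 for Top2a, 0.89 for Nusap1 and 1.35 for Cenpa. The other probe sets of Mcm4 (-0.07), Top2a (-0.02) and Nusap1 (-0.24) did not rise.

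At 300 mg/kg, 5 genes rose and 1 fell, where 13.8% of all tested probe sets rose, 13.7% fell and 27.5% changed either way. The share of the genes that was called, 6 of 36, is thus no larger than that of the array as a whole, and the median change of 0.28 compares with -0.03 over all tested probe sets. With no adjustment, 14 genes had a p under 0.05, against 37.2% of probe sets. The arrays lay above all LPS arrays in 7 genes (19.7% of probe sets) and below them in 4 (19.2%). Cenpa had signals of 876.5, 810.2 and 623 at this dose and 214, 199 and 279 after LPS alone. Replicate 2 lay between the naive arrays (719.6 and 876), replicate 1 just above them and replicate 3 below, with a change of 1.67 ± 0.31 (adjusted p = 0.000485). Gmnn stood at 434, 943 and 435 against 98.1, 184 and 181, without overlap and still under the naive 1414 and 1505 (1.81 ± 0.40, adjusted p = 0.00228).

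Rrm2 stood at 485, 631 and 332 at 300 mg/kg against 253, 130.1 and 162 after LPS (1.34 ± 0.36, adjusted p = 0.00907). Top2a stood at 548, 617 and 533 against 279, 363 and 155 (1.12 ± 0.33, adjusted p = 0.0165). Nusap1 stood at 435, 464 and 511 against 237, 289 and 285 (0.77 ± 0.27, adjusted p = 0.0443). For each of the 5 genes that rose, every array at 300 mg/kg lay above every LPS array. All 5 were also among the genes lower after LPS, but the LPS arrays are part of both comparisons, which are therefore not independent. Of the other 14 genes lower after LPS, none was called at 300 mg/kg, with changes from -0.04 for Prc1 and 0.10 for Mcm5, through 0.40 for Cdc6, to 0.84 for Ccnb2, 1.01 for Aurkb and 1.36 for Bub1b. Of these 14, Ccnb2 had every array at 300 mg/kg above every LPS array.

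Cdca7, a chromatin remodelling partner with a zinc finger, went the other way at the higher doses. It was not called after LPS, with 389 and 206 in naive mice and 513, 321 and 501 after LPS. With SMD it stood at 74.2, 112 and 326 at 100 mg/kg, 27.7, 16.2 and 8.6 at 200 mg/kg, and 102, 8.3 and 21.6 at 300 mg/kg. The arrays at 200 and 300 mg/kg were all below every naive and LPS array, most of them under the level of 33.9. The changes against LPS were -3.79 ± 0.57 (adjusted p = 0.000612) and -3.25 ± 0.57 (adjusted p = 0.000323), and depend on the pseudocount. With the log2 actin ratio as a covariate they were -2.56 (adjusted p = 0.0618) and -1.73 (adjusted p = 0.153) and no longer called. The second probe set of Cdca7 was too dim to be tested.

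At 300 mg/kg the actin ratio was above that of every LPS array. With its log2 value as a covariate, Gmnn (1.04, adjusted p = 0.261), Top2a (0.82, adjusted p = 0.321) and Nusap1 (0.78, adjusted p = 0.252) were no longer called, 3 genes were called higher, and Cenpa and Rrm2 were among them. Without SMD 300 mg/kg replicate 2 the number of genes called higher was 2, and without SMD 100 mg/kg replicate 3 it was 8. Without LPS replicate 2 the number called lower was 2. In the mean of all probe sets of a gene the changes were 0.61 for Cenpa (adjusted p = 0.191), 0.65 for Rrm2 (adjusted p = 0.227), 0.53 for Nusap1 (adjusted p = 0.3) and 0.01 for Top2a (adjusted p = 0.99). Without LPS replicate 3 Top2a changed by 0.80 (adjusted p = 0.105), and Nusap1 lost its call in 14 of the 25 alternatives run. The second bright probe set of Rrm2 changed by 0.91 (adjusted p = 0.0676). Rrm1 differed between its probe sets: the chosen one changed by -0.04, and a dimmer one by -1.67 ± 0.47 (adjusted p = 0.0119).

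**Figure D3:**
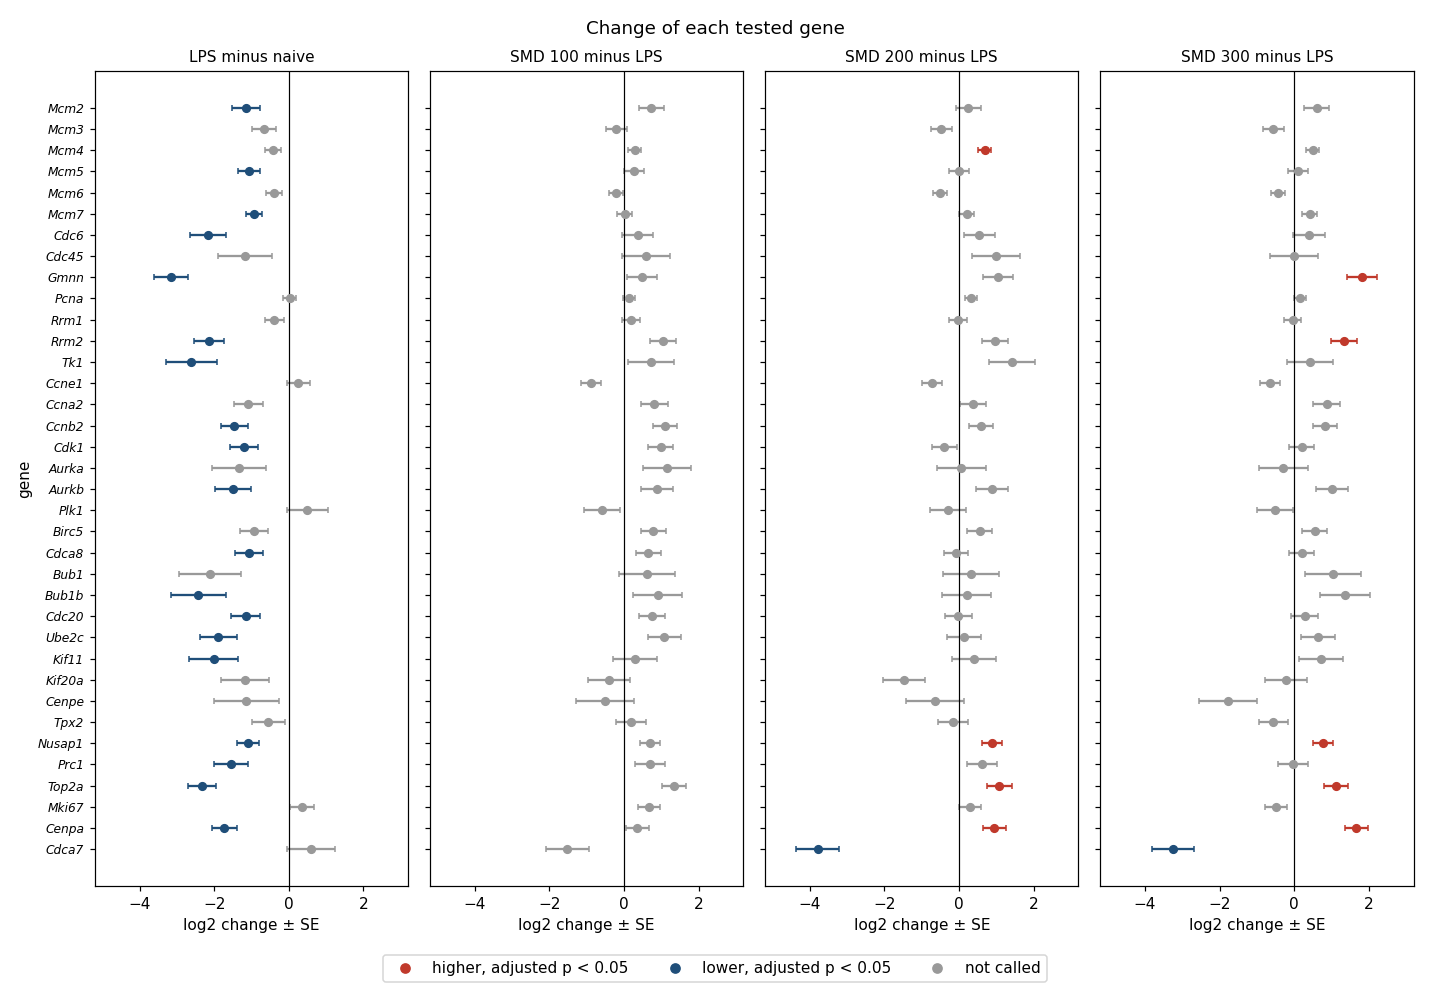
Log2 change (points) with standard error (bars) of the 36 tested genes for LPS minus naive and for SMD 100, 200 and 300 mg/kg minus LPS, coloured by call. Most changes are negative for LPS minus naive, and Cdca7 is the one negative call at 200 and 300 mg/kg.

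Between doses, 2 genes rose and 2 fell at 300 against 100 mg/kg, where 9.29% of probe sets rose, 8.45% fell and 17.7% changed either way. At an unadjusted p under 0.05 there were 6 genes, against 29.3% of probe sets. The arrays were apart upwards in 2 genes (17.3% of probe sets) and downwards in 2 (14.8%). Cenpa had 876.5, 810.2 and 623 at 300 mg/kg against 542, 200.2 and 241 at 100 mg/kg, without overlap (1.31 ± 0.31, adjusted p = 0.00572). Gmnn had 434, 943 and 435 against 368, 258 and 97.8, also apart (1.34 ± 0.40, adjusted p = 0.0265). Mki67 fell, from 4162, 3614 and 1650.3 at 100 mg/kg, the group with the highest mean of this gene, to 1059, 1353 and 1568 at 300 mg/kg (-1.15 ± 0.29, adjusted p = 0.0103). Cdca7 fell by 1.73 ± 0.57 (change -1.73, adjusted p = 0.0426) with overlapping arrays. The Mki67 call was lost without SMD 100 mg/kg replicate 1 (-0.89, adjusted p = 0.0667), and the Gmnn call without SMD 100 mg/kg replicate 3 (0.84, adjusted p = 0.144) or SMD 300 mg/kg replicate 2 (0.98, adjusted p = 0.164). The Cdca7 call was lost in most of the alternatives run.

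By limma, 0 genes were called between 200 and 100 mg/kg, where 0.788% of probe sets rose, 0.337% fell and 1.13% changed either way, and 0 between 300 and 200 mg/kg, where these shares were 2.02%, 3.05% and 5.07%. At an unadjusted p under 0.05 there were 6 genes (14.7% of probe sets) and 3 genes (18.4%). The arrays at 200 mg/kg lay above all those at 100 mg/kg in 1 gene (10.1% of probe sets) and below in 4 (10%), and those at 300 mg/kg lay above all those at 200 mg/kg in 3 (13.3%) and below in 2 (11.5%). At 200 against 100 mg/kg the smallest p-values were those of Cdk1, with 119, 167 and 99.0 against 467, 281 and 334 and no overlap (-1.38 ± 0.33, adjusted p = 0.0529), Cdca7 (-2.28, adjusted p = 0.0615) and Cdca8, with 144, 199 and 149 against 462, 206 and 234 (-0.74, adjusted p = 0.306). At 300 against 200 mg/kg they were those of Mki67, with 1059, 1353 and 1568 against 2228, 2065 and 2489 (-0.78, adjusted p = 0.149), Cenpa (0.72, adjusted p = 0.207) and Kif20a, with 65.2, 58.0 and 46.6 against 2.8, 40.6 and 9.8 (1.26, adjusted p = 0.244).

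Across the 12 arrays of challenged mice, with LPS alone as dose 0, 4 genes rose with dose and 1 fell, where 27.4% of tested probe sets had a trend, 13.6% upward and 13.8% downward. With no adjustment, 12 genes had a p under 0.05, against 37.2% of probe sets. Per 100 mg/kg the slopes were 0.56 ± 0.10 for Cenpa (adjusted p = 0.00034), 0.60 ± 0.13 for Gmnn (adjusted p = 0.00172), 0.39 ± 0.12 for Rrm2 (adjusted p = 0.0241) and 0.19 ± 0.07 for Mcm4 (adjusted p = 0.0395), and -1.20 ± 0.22 for Cdca7 (adjusted p = 0.000483). The group means of Cenpa and Gmnn were higher at each further dose, while Top2a, at group means of 266 after LPS, 722, 557 and 566 with SMD, did not follow dose (0.31 ± 0.13, adjusted p = 0.0907). Without LPS replicate 3 or SMD 300 mg/kg replicate 2 there were 2 upward trends, and without SMD 100 mg/kg replicate 1 there were 7. With the log2 actin ratio as a covariate 1 upward trend was left, and the slopes of Cdca7 (-0.57, adjusted p = 0.28), Gmnn (0.36, adjusted p = 0.273), Mcm4 (0.07, adjusted p = 0.746) and Rrm2 (0.52, adjusted p = 0.102) did not pass, that of Rrm2 being larger than without the covariate.

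The naive arrays remained the highest for many genes. In 14 of the 37 genes both naive arrays exceeded all 12 arrays of challenged mice, against 18.6% of tested probe sets. They were the replication genes Gmnn, Cdc6, Mcm2, Mcm3, Mcm5 and Mcm7, the nucleotide enzymes Rrm2 and Tk1, the checkpoint and APC/C genes Bub1, Bub1b and Ube2c, and the spindle genes Kif11, Kif20a and Prc1. For Cdc6 the challenged arrays reached 151 at most, on SMD 300 mg/kg replicate 1, against 318 on the lower naive array. In 0 genes were both naive arrays below all challenged arrays, against 7.38% of probe sets.

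Other genes of the same pathways were read from lists chosen for their function, with earlier results of these data known. Of 41 other replication genes tested, 17 fell and 1 rose after LPS, and 31 of 51 other mitosis genes fell and 2 rose, beside 16.8% of all tested probe sets that fell and 10.3% that rose. The single-strand DNA binding subunits Rpa3 (-1.96 ± 0.25, adjusted p = 8.87e-06) and Rpa1 (-1.44), the clamp loader subunit Rfc1 (-1.92), the passenger protein Incenp (-2.31), the Cdk1-activating phosphatase Cdc25b (-3.80) and the condensin subunit Smc4 (-2.18) were those with the smallest p. After median centring 8 of the replication and 19 of the mitosis genes fell. At 200 mg/kg 7 and 8 of the genes of these lists rose and 2 and 0 fell, and at 300 mg/kg 11 and 20 rose and 6 and 1 fell, beside shares of all probe sets of 6.68% and 6.39% at 200 mg/kg and of 13.8% and 13.7% at 300 mg/kg. The 6 of 41 that fell at 300 mg/kg are near that background. With the actin ratio as a covariate the genes that rose numbered 0 and 1 at 200 mg/kg and 5 and 9 at 300 mg/kg.

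At 300 mg/kg Cdc25b stood at 524, 508 and 217, against 46.7, 7.3 and 59.2 after LPS alone and 596 and 709 in naive mice (3.08 ± 0.44, adjusted p = 4.35e-05). It thus returned towards the naive level. Rpa1 rose above both naive arrays, at 6818, 10493 and 6965 against 6514 and 6702 in naive mice. After LPS alone Rpa1 stood at 2639, 2158 and 2495, and its change against LPS was 1.70 ± 0.17 (limma adjusted p = 2.13e-06). Racgap1, which acts in cytokinesis (1.65), Rpa3 (1.43) and the Cdk-binding protein Cks2 (1.71) rose too. The clamp loader subunit Rfc3 moved the opposite way, with 249 and 221 in naive mice, 1166, 804 and 1273 after LPS, and 94.7, 68.7 and 224 at 300 mg/kg (-3.04 ± 0.40, adjusted p = 2.18e-05).

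Among the regulators of G1, cyclin D1, Ccnd1, had signals of 2975 and 3326 in naive mice, 191, 149 and 237 after LPS, 214, 140.3 and 103 at 100 mg/kg, 239, 259.9 and 171 at 200 mg/kg, and 542, 741 and 644 at 300 mg/kg. It was low on every challenged array and rose in part at the highest dose, with changes of -3.95 ± 0.32 for LPS (adjusted p = 4.37e-08) and 1.67 ± 0.28 at 300 mg/kg against LPS (adjusted p = 0.000224). Cyclin D2, Ccnd2, moved the opposite way, with 2741 and 2654 in naive mice, 15994, 12851 and 18937 after LPS, 9838, 9143 and 13694 at 100 mg/kg, 6636, 6664 and 7278 at 200 mg/kg, and 3099.5, 1953 and 3427 at 300 mg/kg. It rose by 2.54 ± 0.22 with LPS (adjusted p = 1.35e-07), and at 300 mg/kg it was lower than with LPS alone (-2.51 ± 0.20, adjusted p = 2.86e-07), with arrays on both sides of the naive ones. These 4 calls held under each of the 25 alternatives run.

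The Cdk inhibitor genes Cdkn2c (-2.07) and Cdkn1b (-1.55) fell after LPS and rose at 300 mg/kg (2.13 and 1.30), while Cdkn1a, or p21, rose after LPS (1.72 ± 0.29, adjusted p = 0.000191). In all, 2 of 15 genes of this list rose and 4 fell after LPS, 2 rose and 3 fell at 200 mg/kg, and 4 rose and 2 fell at 300 mg/kg. The shares of all probe sets were 10.3% and 16.8% after LPS, 6.68% and 6.39% at 200 mg/kg, and 13.8% and 13.7% at 300 mg/kg, and several of these counts are near them. At 200 mg/kg Cdkn2b (1.04) and Cdkn2c (1.07) rose, Cdc25a (-0.94) and Ccnd2 (-1.20) were among those that fell, and with the actin ratio as a covariate none of the list was called at that dose.

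Of 20 E2F, RB and DREAM regulators, 2 rose and 4 fell after LPS, 3 rose and 1 fell at 200 mg/kg, and 4 rose and 2 fell at 300 mg/kg. After LPS these counts are close to the 10.3% and 16.8% of all probe sets. The background was 6.68% higher and 6.39% lower at 200 mg/kg, and 13.8% and 13.7% at 300 mg/kg. Rbl2, or p130, the pocket protein of resting cells, had signals of 2993 and 2853 in naive mice, 448, 737 and 463 after LPS, 986, 982 and 792 at 100 mg/kg, 1935, 1798 and 1427 at 200 mg/kg, and 2197, 2091 and 1697 at 300 mg/kg. The arrays of LPS alone, 100 mg/kg and 200 mg/kg did not overlap, and the slope per 100 mg/kg was 0.65 ± 0.08 (adjusted p = 6.84e-06). Rb1 moved alike, with 3434 and 4012 in naive mice, 1358, 1901 and 1000.3 after LPS, and 5343, 5524 and 5045 at 300 mg/kg, above the naive arrays (1.94 ± 0.20 against LPS, adjusted p = 2.84e-06). E2f5, a repressive E2F, rose after LPS (1.75) and was lower with SMD (-0.69 at 200 and -0.98 at 300 mg/kg), and Myc rose after LPS (1.70). The trends of Rbl2, Rb1 and E2f5 with dose were called under each of the 24 alternatives run.

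Marker genes of several other cell types moved with the same groups. The 9 B cell markers used here summed to 81967 to 85521 in naive mice, 50349 to 61240 after LPS, 32166 to 53734 at 100 mg/kg, 37174 to 50045 at 200 mg/kg and 55009 to 69265 at 300 mg/kg. After LPS 6 of the 9 fell, beside 16.8% of all probe sets, and at 300 mg/kg 5 rose against LPS, beside 13.8%. The T and NK cell markers, 8 of 10 matched, summed to 2006 to 2109, 868 to 1405, 811 to 1477, 1839 to 2360.3 and 2698 to 3890 in the same order, where 1 of the 8, Thy1, fell after LPS (-2.11) and 4 rose at 300 mg/kg. The 4 myeloid progenitor markers summed to 3224 to 3508, 477 to 595, 753 to 889.6, 875 to 1216 and 1072 to 1988. This sum moved mostly through Prtn3, which fell after LPS (-3.54) and rose at 300 mg/kg (2.22). Elane, Mpo and Ctsg, the other markers of this list, were called in neither comparison and had no called trend with dose.

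The neutrophil markers, 8 of 10 matched with Ly6g and Retnlg unmatched, summed to 3134 to 4004 in naive mice and 21288 to 23715 after LPS, where 5 of 7 tested rose beside 10.3% of all probe sets, and to 36350 to 48101 at 300 mg/kg. At that dose 3 of the 7 rose against LPS and 1 fell, beside 13.8% and 13.7% of all probe sets. At 200 mg/kg 0 rose and 1, Csf3r, fell (-1.18), beside 6.68% and 6.39%. With dose, S100a8, S100a9 and Mmp9 rose and Csf3r fell (-0.49 per 100 mg/kg, limma adjusted p = 0.000439). Trends of Ngp, Camp and Ltf were not called. The macrophage markers summed to 197974 to 202889 in naive mice and 216061 to 224248 after LPS. Of the 11, Gata6 (-1.67), Icam2 (-1.18) and Vsig4 (-0.64) fell after LPS and Cd14 (2.45) rose. The part of any of these cell types in the changes of the cell division genes was not tested.

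**Figure D4:**
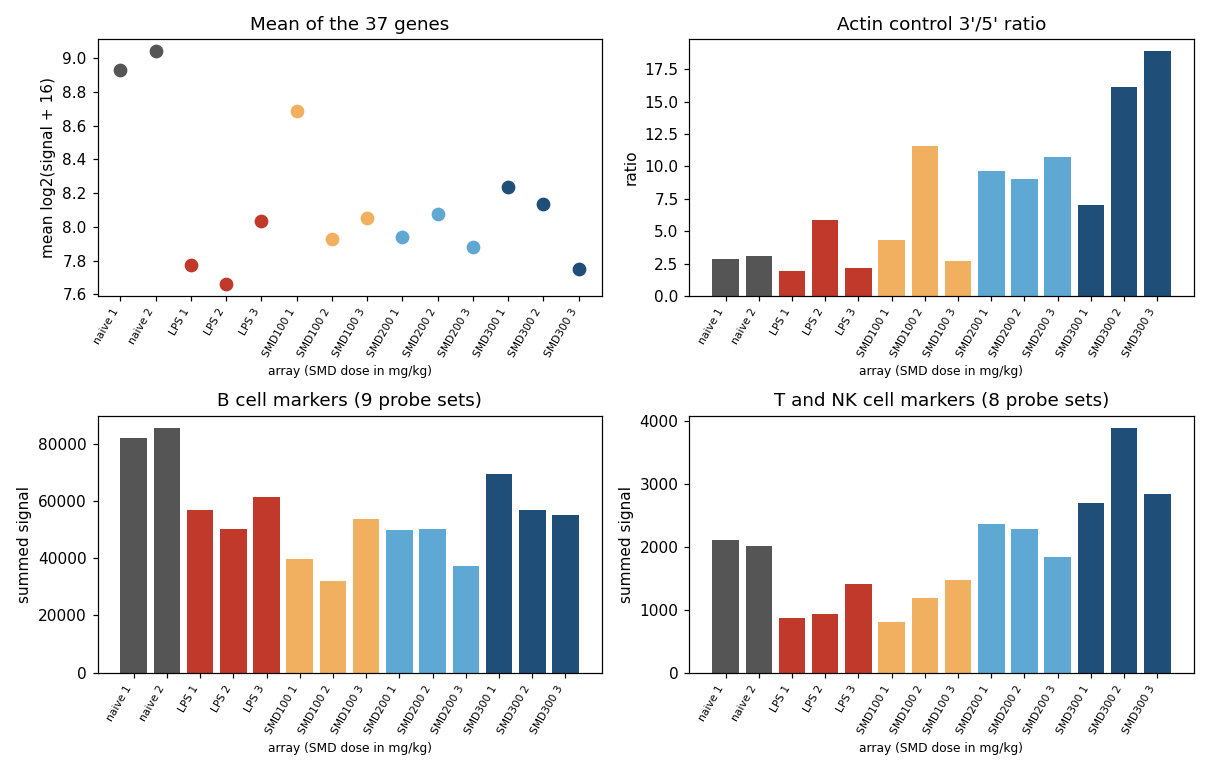
Mean log2(signal + 16) of the 37 genes (points), 3′/5′ ratio of the actin control (bars), and summed signals of 9 B cell and 8 T and NK cell marker genes (bars) on each of the 14 arrays. The 2 naive arrays have the highest means of the 37 genes (8.93 and 9.05), and the actin ratio reaches 18.9 on SMD 300 mg/kg replicate 3.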

How the data were processed

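Arrays of 14 RNA samples were used. Each deposited value is an intensity that the authors computed for a probe set by MAS5, per the submitters' processing notes, without a log and with no version stated. MAS5 scales each array, so values are relative to the rest of the array. The 64 control probe sets were set aside, which left 45037. Gene names came from the platform annotation. Values were taken as log2(signal + 16), which shrinks changes of dim genes, and those 40% of probe sets that had the smallest means were dropped. The 5 group means were estimated from all arrays together with limma 3.58.1 in R 4.3.3, with intensity-dependent moderated variances and two-sided tests; the dose trend used the 12 arrays of challenged mice. The fit was checked on simulated data.

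The members and lists were chosen with earlier results of these data known. Values per array are given for up to 10 called genes per comparison with the smallest adjusted p, for the 3 with the smallest p where none was called, and for the brightest gene of each of 7 roles. Up to 3 called genes per comparison were named from each other list. Further genes were named after their values were seen. The symbols Rrm2, Mcm5, Cdc20, Aurkb and Ccne1 were read from probe sets with the suffix _x_at, and Mcm2, Mcm3, Mcm7, Prc1 and Cdca8 from ones with _s_at, suffixes that mark probes able to match other transcripts. Alternatives were other pseudocounts, scalings and filters, the mean of a gene's probe sets, a replicate block, array weights, the log2 actin ratio as covariate, only the groups compared, and each array left out.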

Additional observations from a re-analysis of the deposited data

How the results depend on the processing

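Of the alternatives run on the called cell division genes, none turned a direction; among the other named genes, Rfc1 at 200 mg/kg (1.03) was at -0.03 with the mean of its probe sets. The number of genes called lower after LPS was 11 with quantile normalization and 9 with median centring. With the mean of a gene's probe sets the counts at 200 mg/kg were 0 higher and 0 lower, at 300 mg/kg 2 higher and 0 lower, for 300 against 100 mg/kg 1 higher and 1 lower, and 1 upward trend. With the actin ratio as a covariate they were 0 and 0 at 200 mg/kg, 3 higher at 300 mg/kg, 1 and 1 for 300 against 100 mg/kg, 1 lower for 300 against 200 mg/kg and 1 upward trend. With array weights they were 1 higher at 100 mg/kg, 2 lower at 200 mg/kg, 1 lower for 200 against 100 mg/kg, 1 higher and 1 lower for 300 against 100 mg/kg, and 2 downward trends. Using only the groups compared gave 1 higher and 1 lower for 300 against 100 mg/kg and 1 lower for 300 against 200 mg/kg. Median centring gave 8 higher at 300 mg/kg, and no filter 2 higher at 200 mg/kg. For 300 against 100 mg/kg, 1 was lower with a pseudocount of 64, quantile normalization or no filter. With a pseudocount of 64 or the lowest 60% left out, 1 was lower for 200 against 100 mg/kg, and quantile normalization or the lowest 60% left out gave 2 downward trends. The causes were not tested. Apart from median centring, the shares of all probe sets called under these settings or without single arrays are not given here. The counts thus do not separate the cell division genes from the array as a whole.

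With single arrays left out, genes lower after LPS numbered 7 to 21; higher genes 0 to 3 at 100 mg/kg, 0 to 5 at 200 mg/kg and 2 to 8 at 300 mg/kg; lower genes 1 to 2 at 200 and 1 to 2 at 300 mg/kg. Lower genes numbered 0 to 1 for 200 against 100 mg/kg and 0 to 1 for 300 against 200 mg/kg, and for 300 against 100 mg/kg there were 1 to 3 higher and 1 to 2 lower. Upward trends numbered 2 to 7 and downward trends 1 to 2, with 2 downward without LPS replicate 2, SMD 100 mg/kg replicate 2, or SMD 300 mg/kg replicate 1 or 2. The 1 lower gene for 200 against 100 mg/kg came without LPS replicate 2 or SMD 300 mg/kg replicate 1 or 2, and that for 300 against 200 mg/kg without SMD 100 mg/kg replicate 3. For 300 against 100 mg/kg, 1 higher gene was left without SMD 100 mg/kg replicate 3 or SMD 300 mg/kg replicate 2.

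The replicate block gave 15 genes lower after LPS, 3 higher at 200 mg/kg and 5 higher at 300 mg/kg. Nusap1 was not among them at 200 (adjusted p = 0.0546) or 300 mg/kg (adjusted p = 0.0588). Between groups, arrays with the same replicate number had deviations from the group means that correlated at -0.13 to 0.18. Those with different numbers correlated at -0.27 to 0.22. With groups of 2 or 3 arrays these values cannot show whether the samples were paired. Groups of 2 or 3 arrays and signals near 33.9 limit what could be detected.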
